A study of Mus musculus with 40 samples.

Results

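The phagocyte NADPH oxidase is the enzyme with which macrophages and neutrophils move electrons from NADPH across a membrane onto oxygen, which makes superoxide. Its catalytic core in the membrane is a pair of proteins, the flavocytochrome subunit NOX2 (gene Cybb) and its partner p22phox (gene Cyba). In resting cells further subunits lie in the cytosol, among them the organizer p47phox (Ncf1), the lipid-binding p40phox (Ncf4) and the small GTPase RAC2 (Rac2). Activation brings the cytosolic subunits to the membrane, and loss of the core or organizer subunits causes chronic granulomatous disease. The genes described here are Cybb, Cyba, Ncf1, Ncf4 and Rac2, chosen by their symbols. They are 5 of the 27179 genes in the expression table, and all 5 were among the 13103 genes past the filter on low expression, a mean value of at least log2 of 5.

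The study asked how CPEB4, a protein that binds mRNA and regulates its translation and stability, shapes the macrophage response to lipopolysaccharide (LPS), a component of the bacterial outer membrane. Bone marrow-derived macrophages (BMDMs) were grown for 7 days in medium with M-CSF from L cells. They came from 4 WT mice (mice 25, 69, 87 and 88) and 4 mice without Cpeb4 in any tissue (Cpeb4-/-, labelled CPEB4-KO, mice 2, 3, 55 and 62). All 8 were adult males of a mixed genetic background that includes C57BL/6J, and the sources used here give no ages in weeks. Cells were left untreated (0 hr) or kept for 1, 3, 6 or 9 hr with 10 ng/ml LPS. Poly(A) RNA of each mouse was sequenced at all 5 times, which gave 40 libraries in 10 groups of 4. Libraries of different times therefore share their mice, and the genotypes share none. The labels name 2 batches, each with 2 mice of each genotype, and 6 cages, none of which held both genotypes, so cage and genotype cannot be told apart. Values are rlog values, a log2 scale corrected for library size, and differences are Cpeb4-/- minus WT or LPS minus untreated on that scale. A gene is called where limma gave an adjusted p under 0.05. In whole cultures, fewer cells of a type and less RNA per cell cannot be told apart.

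The transcription starts of Cybb, Cyba and Ncf1 are shown first, because they include the member with the largest LPS change (Cybb) and the one with no called change (Cyba). They are the 130 bases before the start in RefSeq (GRCm38.p6), read 5' to 3' toward the gene. Capitals mark a GAAA pair, which is GAAA, any 2 bases and GAAA again, or its reverse complement. Interferon regulatory factors bind spaced GAAA repeats of this kind. Cybb lies at chrX:9469325-9469454 (minus strand), Cyba at chr8:122432941-122433070 (minus strand) and Ncf1 at chr5:134229626-134229755 (minus strand).
Cybb: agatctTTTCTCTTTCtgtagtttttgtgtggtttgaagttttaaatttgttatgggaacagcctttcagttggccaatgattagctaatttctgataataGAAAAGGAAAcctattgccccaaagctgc
Cyba: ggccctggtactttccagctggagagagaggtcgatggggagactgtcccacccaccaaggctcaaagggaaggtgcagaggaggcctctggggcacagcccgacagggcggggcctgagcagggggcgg
Ncf1: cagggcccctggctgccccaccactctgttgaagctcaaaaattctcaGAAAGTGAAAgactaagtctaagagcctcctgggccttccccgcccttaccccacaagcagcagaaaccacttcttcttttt

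Over 250 bases before the start, on both strands, Cybb held the GAAA pair at 3 places, from 29 to 20, 124 to 115 and 168 to 159 bases before the start, the last outside the stretch shown. Ncf1 held it once, 82 to 73 bases before the start, and Cyba did not hold it. Of 32851 promoters of this length, 2.98% held it. CCAAT was present in Cybb at 56 to 52 bases before the start (33.8% of all promoters held it). GGGCGG was present at 2 places in Cyba and at 1 place on the opposite strand in Ncf1 (32.7% of all promoters). GAGGAA, 1 form of the site bound by PU.1, was not in these 3 windows (23.3% of all promoters). Shorter forms such as GGAA, which occurs in the letters shown, were not searched. The motifs were chosen after the sequences had been read, and a match is a description of letters, not of a bound site. The promoter table matched 3 of the 5 genes.

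In mm10, Cybb lies on chromosome X from 9435252 to 9487771, Cyba on chromosome 8 from 122424776 to 122432930 and Ncf1 on chromosome 5 from 134220053 to 134229625. These spans are from GENCODE. The stretch shown above for Cybb lies inside its span, so the RefSeq start used there differs from the GENCODE start of the gene. Ncf4 (78244801 to 78262580) and Rac2 (78559167 to 78572783) are on chromosome 15, with 296586 bases between them. All 5 are protein-coding genes, and only Ncf4 is on the plus strand. Per kilobase of exon, the back-transformed level in untreated WT cells was highest for Cyba at 24320, against 4334 for Cybb, 3575 for Ncf4, 3406 for Rac2 and 3400 for Ncf1. Cyba was thus far above the other members, which lay close together. The exon length joins all annotated exons of a gene rather than those of the expressed transcript, so this order depends on the annotation. At 6 hr of LPS the order of the levels per kilobase in WT was Cyba at 24132, Cybb at 14611, Rac2 at 7682, Ncf1 at 6185 and Ncf4 at 4961.

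All 40 libraries were closest to a group of their own time, and r to the mean of their own group lay between 0.995 and 0.999 across genes. However, 4 libraries were nearer to the other genotype at their time, by at most 0.00102 in r: WT mouse 69 at 1 hr, WT mouse 88 at 3 hr, and Cpeb4-/- mouse 2 at 1 and 9 hr. Results are therefore also given without them where they changed. Cpeb4 mRNA separated the genotypes only at 6 hr. There it was 10.42, 10.67, 10.09 and 10.62 in WT mice 25, 69, 87 and 88 and 8.87, 9.45, 9.66 and 8.74 in Cpeb4-/- mice 2, 3, 55 and 62, a difference of −1.27 (SE 0.19, adjusted p = 0.00114). At the other 4 times the genotypes overlapped, and in the first hour the libraries labelled Cpeb4-/- had the higher mean (9.01 against 8.64, a difference of 0.37, adjusted p = 0.525). The value covers the whole gene, and which exons the allele lacks was not used here. The macrophage markers Adgre1, Csf1r, Cd68, Itgam, Lyz2, Fcgr1, Mertk and Cd14 were all expressed (8 of 8). The neutrophil markers Ly6g and Elane were below 1 count in every library, and the 10 neutrophil and granulocyte genes summed to 73.9 to 285 back-transformed counts, against 412374 to 738196 for the 8 macrophage genes. Of the other lists, 2 of 5 dendritic cell genes (Zbtb46 and Ccr7), 0 of 5 T and B cell genes and 0 of 3 fibroblast genes passed the filter. Between genotypes, none of the 4 neutrophil genes past the filter was called at any time, and Zbtb46 was called higher in Cpeb4-/- at 3 hr (1.10, adjusted p = 0.00679 by limma).

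On the deposited scale LPS raised Cybb, Rac2, Ncf1 and Ncf4 in both genotypes, and left Cyba without a called change; under other scalings, given below, the direction of Ncf1, Ncf4 and Rac2 turned at some times. The LPS comparisons of a genotype share its 4 untreated libraries. At 6 hr the WT change was 1.75 for Cybb, a 3.37-fold rise, 1.17 for Rac2 (2.26-fold), 0.86 for Ncf1 (1.82-fold) and 0.47 for Ncf4 (1.39-fold). These 4 rises were present in 4 of 4 mice of each genotype. In WT, limma called 2 members higher at 1 hr (33.9% of all genes tested were called in either direction), and 4 higher at 3 hr (67.8%), 6 hr (77.9%) and 9 hr (71.5%). In Cpeb4-/- cells it called 3 at 1 hr (43.8%), and 4 at 3 hr (71.3%), 6 hr (79.1%) and 9 hr (72.8%). As most genes were called from 3 hr on, the number of members called is close to the background, and the sizes carry the description. The median of the 5 member changes to 6 hr was 0.86 in WT (Cpeb4-/- 0.83), against −0.02 over all genes tested in each genotype.

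**Figure D1:**
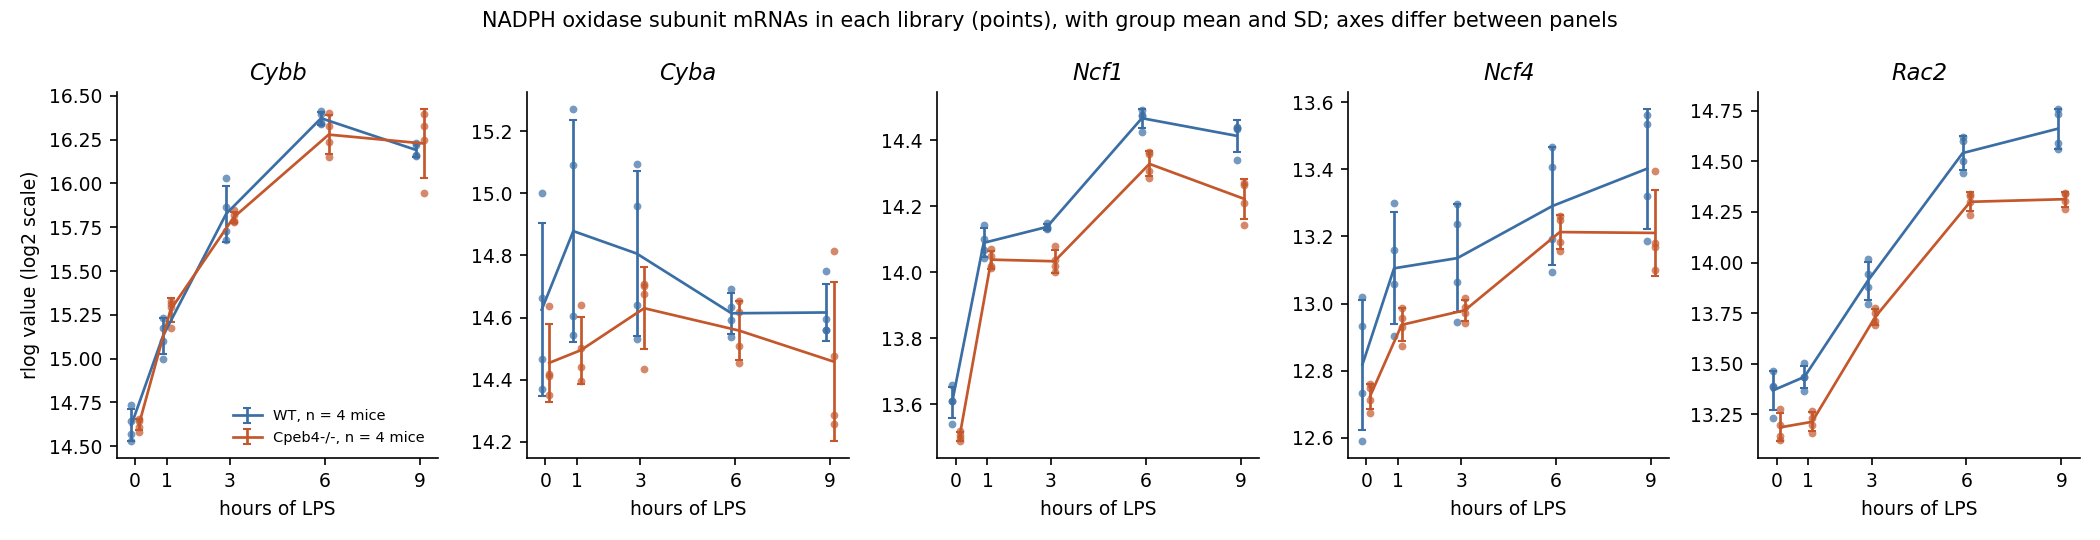
rlog value (log2 scale) of each oxidase gene against hours of LPS, in WT (blue) and Cpeb4-/- (orange). Points are the 4 mice of a group, lines join the group means and bars are the SD; the y axes differ. On this deposited scale Cybb, Ncf1, Ncf4 and Rac2 rise in both genotypes (Cybb at 1 hr, Ncf1 at 3 and 6 hr, Ncf4 at every time and Rac2 at 1 and 3 hr were not called higher in both genotypes under every scaling), Cyba does not, and the Rac2 lines stay apart at every time.

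The size of these rises depends on how libraries are put on 1 scale. The sum of all back-transformed rlog values of a library, on the log2 scale, rose by 0.58 in WT and by 0.52 in Cpeb4-/- from untreated cells to 6 hr of LPS. Genes at about the level of a member (within 0.5 rlog of its mean) shared in it: at 6 hr in WT their median change was 0.47 around Cybb, 0.67 around Cyba, 0.64 around Ncf1, 0.65 around Ncf4 and 0.76 around Rac2. Cybb, Rac2 and Ncf1 were above the median of the genes of their level and below the upper quartile, Ncf4 was below the median, and Cyba was below the lower quartile of 0.21. Changes are therefore also given after scaling every library to the same total and after quantile normalization where a statement turns on it.

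Cybb rose at each step to 6 hr. In untreated cells it was 14.57, 14.64, 14.53 and 14.74 in WT mice 25, 69, 87 and 88, and 14.58, 14.65, 14.64 and 14.61 in Cpeb4-/- mice 2, 3, 55 and 62. At 6 hr the same mice gave 16.34, 16.40, 16.34 and 16.41 in WT, and 16.24, 16.33, 16.40 and 16.15 in Cpeb4-/-. No LPS library at 6 hr overlapped an untreated one. Such separation was not counted over all genes, of which 77.9% were called at 6 hr in WT. The genotypes overlapped at both times. At 1, 3, 6 and 9 hr the WT change was 0.51, 1.21, 1.75 and 1.57 (SE 0.07 each, adjusted p at most 4.63e-06 by limma), and the Cpeb4-/- change 0.66, 1.19, 1.66 and 1.61. Its 6 hr change in WT was 1.18 when scaled to the library total and 0.92 after quantile normalization, and both were called, as were the corresponding changes at 3 and 9 hr. The quantile value for the first hour in WT was 0.05 (adjusted p = 0.654), and the call did not hold there. On the deposited scale every WT mouse had its highest Cybb at 6 hr, while mice 3 and 62 of the Cpeb4-/- group had it at 9 hr. The WT change at 9 hr was 1.20 scaled to the total and 1.03 after quantile normalization, in each case above that at 6 hr.

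Rac2 rose from 3 hr on. RAC2 is the Rac GTPase of blood cells that switches the assembled oxidase on. In untreated cells Rac2 was 13.23, 13.38, 13.46 and 13.39 in WT and 13.14, 13.20, 13.28 and 13.12 in Cpeb4-/-, and at 1 hr 13.37, 13.43, 13.50 and 13.44 in WT and 13.23, 13.27, 13.20 and 13.16 in Cpeb4-/-. Neither genotype had a called change by then (0.07, SE 0.06, adjusted p = 0.443 in WT; 0.03, SE 0.04, adjusted p = 0.617 in Cpeb4-/-), and on the scale of the library total the values were −0.16 and −0.18, both called lower. By 9 hr Rac2 was 14.59, 14.73, 14.76 and 14.56 in WT and 14.34, 14.26, 14.35 and 14.31 in Cpeb4-/-. The changes at 3, 6 and 9 hr were 0.54, 1.17 and 1.29 in WT (adjusted p = 3.68e-13 for 1.17) and 0.55, 1.11 and 1.13 in Cpeb4-/-. After quantile normalization the 3 hr changes were −0.07 in WT and 0.01 in Cpeb4-/-, neither called. From 6 hr on, Rac2 was called higher in both genotypes under all 3 scalings (0.25 to 0.70 after quantile normalization).

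Ncf1, whose product links the cytosolic subunits to the membrane core, rose from untreated to 1 hr and again from 3 to 6 hr. It was 13.61, 13.61, 13.54 and 13.66 in untreated WT cells and 13.49, 13.52, 13.51 and 13.50 in untreated Cpeb4-/- cells. Its changes at 1, 3, 6 and 9 hr were 0.49, 0.53, 0.86 and 0.81 in WT (SE 0.04 each, adjusted p at most 1.98e-09) and 0.54, 0.53, 0.83 and 0.72 in Cpeb4-/-. All 8 mice had their highest deposited Ncf1 value at 6 hr, but the step from 6 to 9 hr in WT was 0.15 scaled to the library total and 0.27 after quantile normalization, both called higher. The WT change at 6 hr was 0.29 (called) on the scale of the library total and −0.05 (adjusted p = 0.346) after quantile normalization, so its direction there depends on the scaling. At 1 and 9 hr it was called higher in both genotypes under all 3 scalings.

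Ncf4, whose product binds a phosphoinositide on phagosomes, had the smallest of the 4 rises at 6 hr. In untreated cells it was 12.59, 12.93, 13.02 and 12.73 in WT and 12.75, 12.67, 12.76 and 12.71 in Cpeb4-/-, so the WT values enclosed those of Cpeb4-/-. Over 1, 3, 6 and 9 hr the WT changes were 0.29, 0.32, 0.47 and 0.58 (SE 0.11 each, adjusted p = 0.0545, 0.0171, 0.000721 and 0.000104). In Cpeb4-/- they were 0.21, 0.26, 0.49 and 0.49 (SE 0.05 each), and all 4 were called. With the mouse as a block the 1 hr change in WT was called (SE 0.05, adjusted p = 8.17e-05), and it was a rise of 0.23 to 0.33 in 4 of 4 mice. The WT call at 3 hr did not hold without mouse 25 (0.27, adjusted p = 0.0804) or without mouse 69 (0.32, adjusted p = 0.0543). At 6 hr these rises were −0.10 in WT and −0.03 in Cpeb4-/- on the scale of the library total and −0.34 and −0.27 after quantile normalization, so the 6 hr rise of Ncf4 was present on the deposited scale only. At 9 hr the change was 0.21 in WT (adjusted p = 0.0774) and 0.15 in Cpeb4-/- (adjusted p = 0.0127) on the scale of the library total, and 0.02 and −0.06 after quantile normalization, neither called. At 3 hr it was −0.08 and −0.11 on the scale of the library total, neither called, and −0.25 and −0.32 after quantile normalization, both called lower. In the first hour it was 0.06 and 0.0028 scaled to the total and 0.03 and −0.08 after quantile normalization, none called. Its change was below the median of 0.65 for genes of its level.

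**Figure D2:**
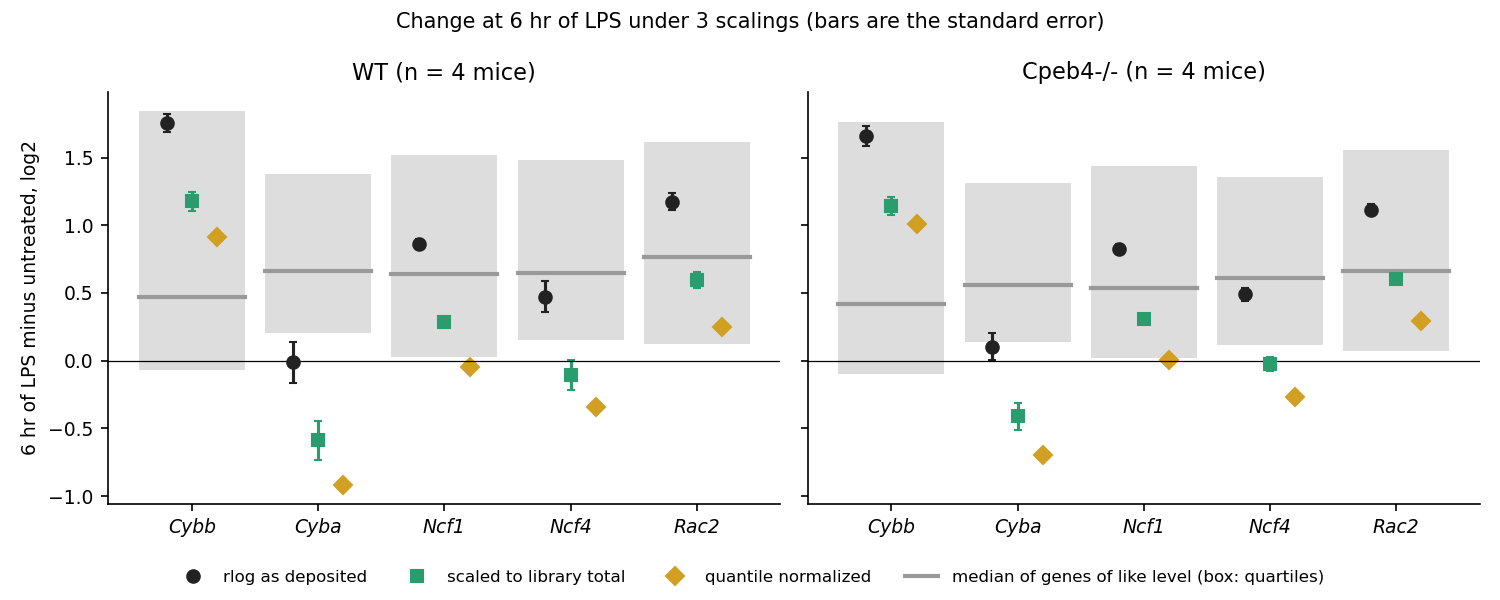
Change of each oxidase gene from untreated to 6 hr of LPS (log2) in WT and Cpeb4-/-, as deposited (circles), scaled to the library total (squares) and quantile normalized (diamonds, without error bars); bars are the standard error, n = 4 mice. Grey boxes are the quartiles and lines the median of genes of like level. Cybb and Rac2 stay above 0 under all 3 scalings, while Cyba goes from −0.01 to −0.92 in WT.

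Cyba did not follow its partner Cybb. In WT it was 14.37, 14.47, 15.00 and 14.66 in untreated cells and 14.61, 14.55, 15.27 and 15.09 at 1 hr, and in Cpeb4-/- 14.41, 14.35, 14.64 and 14.42, then 14.64, 14.44, 14.50 and 14.40. WT mice 87 and 88 were high at 1 hr and the WT SD was 0.36 there, the largest of any member in any group. Its changes at 1, 3, 6 and 9 hr were 0.25, 0.18, −0.01 and −0.01 in WT (SE 0.15 each, lowest adjusted p = 0.220) and 0.04, 0.18, 0.10 and 0.00 in Cpeb4-/- (SE 0.10 each), with none called in either genotype. Without Cpeb4-/- mouse 2, the 3 hr change in Cpeb4-/- was called (0.23, adjusted p = 0.0120). On the scale of the library total the 6 hr change was −0.59 in WT and −0.41 in Cpeb4-/-, both called lower. Cyba therefore took a smaller share of the summed RNA at 6 hr, while its rlog value did not differ beyond the spread.

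Between neighbouring times the steps differed among the members. From 1 to 3 hr, Cybb and Rac2 were called higher in WT (0.70 and 0.47; 60.1% of all genes called) and in Cpeb4-/- (0.53 and 0.52; 64% of all genes). From 3 to 6 hr, Cybb, Ncf1 and Rac2 were called higher in WT (0.55, 0.33 and 0.63; 63.7%), and Ncf4 with them in Cpeb4-/- (0.47, 0.30, 0.57 and 0.23 for Ncf4; 64.4%). After quantile normalization the Ncf1 step from 3 to 6 hr was 0.0095 in WT (adjusted p = 0.862) and 0.02 in Cpeb4-/-, and that of Ncf4 in Cpeb4-/- was 0.05, none called, while the Cybb and Rac2 steps from 1 to 3 and from 3 to 6 hr were called under all 3 scalings. Scaled to the total, that Ncf4 step was 0.08, also not called. From 6 to 9 hr, the called change in WT was a fall of Cybb (−0.18, adjusted p = 0.0318; 51.4%), and in Cpeb4-/- a fall of Ncf1 (−0.11, adjusted p = 0.0144; 53.6%). When scaled to the library total, which fell by 0.21 in WT and by 0.17 in Cpeb4-/- over these hours, the values were 0.03 and 0.07. The Cybb call also did not hold without WT mouse 25 or 69 (adjusted p = 0.107 and 0.140), nor the Ncf1 call without Cpeb4-/- mouse 2 or 62 (adjusted p = 0.0764 and 0.112).

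Rac2 and Ncf1 were called lower in Cpeb4-/- cells at 6 and 9 hr. No member was called at 0 hr (1.31% of all genes called) or at 3 hr (3.68%). Rac2 was called lower at 1 hr (1.91%). At 6 hr (16.3%) and at 9 hr (7.91%), Rac2 and Ncf1 were called lower, and Cybb, Cyba and Ncf4 were not called. The median of the 5 members was −0.09 at 6 hr and −0.19 at 9 hr, against −0.02 and 0.00 over all genes tested. Genes of the level of Rac2 also had negative medians, −0.09 at 6 hr and −0.07 at 9 hr, and 34.7% of them were called at 6 hr.

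The values of Rac2 at 6 hr were 14.50, 14.60, 14.62 and 14.44 in WT and 14.30, 14.23, 14.34 and 14.33 in Cpeb4-/-. Every Cpeb4-/- library was below every WT library there, and likewise at 1, 3 and 9 hr. At 6 hr, 12% of all genes were separated in this direction, and at 1, 3 and 9 hr 8.09%, 6.59% and 8.44%. Over 0, 1, 3, 6 and 9 hr the difference was −0.18, −0.22, −0.18, −0.24 and −0.35 (SE 0.06, 0.05, 0.05, 0.05 and 0.06), with adjusted p = 0.150, 0.0491, 0.0950, 0.00685 and 0.00754 by limma. As levels these are changes of −11.9%, −14.3%, −11.6%, −15.4% and −21.4%. The 6 and 9 hr calls held without any single mouse. The 1 hr call was lost without any of 6 mice (2 of the 8 excepted, WT mouse 69 and Cpeb4-/- mouse 2), with the difference between −0.20 and −0.24. Rac2 was lower in Cpeb4-/- in both batches at every time, by −0.11 to −0.29 in batch 1 and by −0.21 to −0.40 in batch 2. Scaled to the library total, the difference was −0.16 at 6 hr (adjusted p = 0.0388) and −0.30 at 9 hr (adjusted p = 0.00753). After quantile normalization it was −0.13 at 6 hr (adjusted p = 0.130) and −0.29 at 9 hr (adjusted p = 0.0107).

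Ncf1 at 6 hr was 14.49, 14.47, 14.48 and 14.43 in WT and 14.36, 14.29, 14.36 and 14.31 in Cpeb4-/-, and at 9 hr 14.44, 14.44, 14.44 and 14.34 in WT and 14.21, 14.26, 14.27 and 14.14 in Cpeb4-/-. The genotypes did not overlap at 0, 3, 6 and 9 hr, and overlapped at 1 hr. At 0 hr, 4.98% of all genes had every Cpeb4-/- library below every WT library. Over 0, 1, 3, 6 and 9 hr the difference was −0.10, −0.05, −0.10, −0.14 and −0.19 (SE 0.04 each and 0.05 at 9 hr), with adjusted p = 0.241, 0.400, 0.173, 0.0331 and 0.0451 by limma. The 6 hr call was kept only without WT mouse 88 or Cpeb4-/- mouse 55 and was lost without any other mouse (highest adjusted p = 0.0964). At 9 hr it was kept only without Cpeb4-/- mouse 2 (highest adjusted p of the others 0.137). The difference was negative in both batches at all 5 times. At 6 hr it was close to the median of −0.10 for genes of its level. Scaled to the library total, it was −0.06 at 6 hr (adjusted p = 0.338) and −0.14 at 9 hr (adjusted p = 0.0829), so neither call held on that scale.

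Ncf4 had differences of −0.09, −0.17, −0.16, −0.08 and −0.19 in the same order of times (adjusted p = 0.151 to 0.535), none called, and the genotypes overlapped at every time. At 9 hr its values were 13.32, 13.56, 13.54 and 13.19 in WT and 13.39, 13.10, 13.18 and 13.17 in Cpeb4-/-. In batch 2 the Ncf4 difference was between −0.21 and −0.27, and in batch 1 between −0.12 and 0.06, with batch 1 at 0 and 6 hr positive. Cybb had differences between −0.09 and 0.15 with none called, and Cyba between −0.38 and −0.06 with none called.

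When every time was fitted together, with the mouse as a replicate block, Rac2 was also called lower at 0 hr (adjusted p = 0.0214) and 3 hr (adjusted p = 0.0114), Ncf1 at 3 hr (adjusted p = 0.0418) and Cyba in the first hour (−0.38, adjusted p = 0.0318), so the times at which a member was called depend on the fit.

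Leaving out the 4 libraries nearer to the other genotype changed these counts. Those libraries were picked by their likeness to the other genotype, so leaving them out raises the number of calls by construction, and the values that follow are a description. Then 3 members were called for the first hour: Rac2 and Cyba (−0.54, adjusted p = 0.0270) lower and Cybb (0.22, adjusted p = 0.0312) higher, among 4569 genes called, against 251 with all libraries. At 3 hr, without WT mouse 88, Ncf4 (−0.22, adjusted p = 0.0280) and Rac2 (−0.21, adjusted p = 0.0195) were called lower, among 2584 genes, against 481. At 9 hr, without Cpeb4-/- mouse 2, Cyba (−0.28) and Ncf4 (−0.25) joined Rac2 and Ncf1 as lower, among 4575 genes, against 1029. Without WT mouse 69 alone, Cyba was called lower in the first hour (−0.49, adjusted p = 0.0454).

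The genotype difference at each LPS time was not shown to depart from that in untreated cells. The interaction called no member at 1 hr (0.00763% of all genes called), 3 hr (0.206%), 6 hr (2.94%) or 9 hr (1.76%). At 9 hr the interaction was −0.17 for Rac2 (SE 0.07, adjusted p = 0.317 by limma) and −0.09 for Ncf1 (SE 0.05, adjusted p = 0.463). This fit did not take the mouse as a block, so it did not use the pairing of times within a mouse. At an unadjusted p under 0.05, Rac2 at 9 hr was the single member passing in the 4 interactions.

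**Figure D3:**
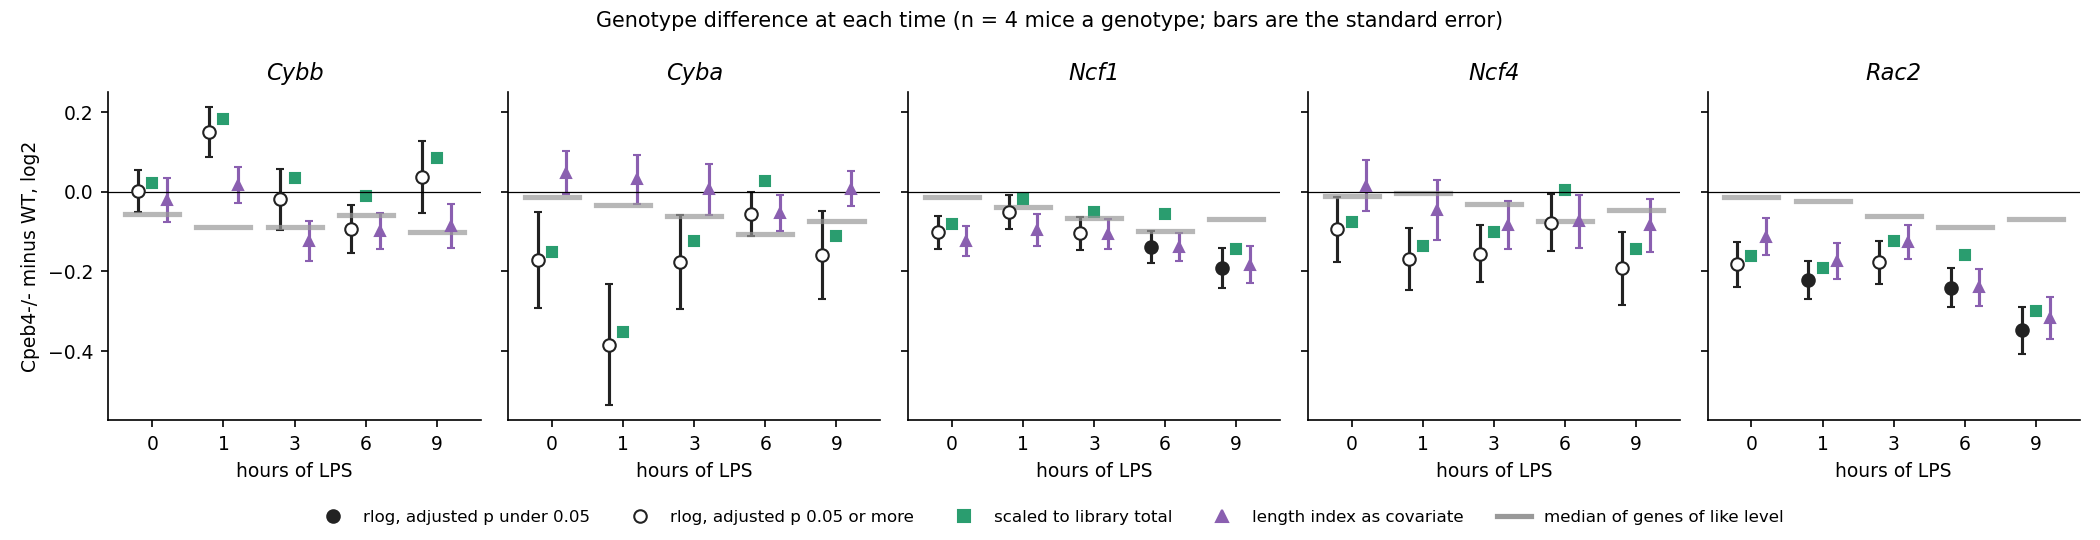
Cpeb4-/- minus WT (log2) for each oxidase gene against hours of LPS; circles are the deposited values (filled where the adjusted p is under 0.05), squares are values scaled to the library total (no error bars), triangles have the library length index as a covariate, grey lines are the median of genes of like level, and bars are the standard error (n = 4 mice a genotype). Rac2 is below 0 and below the grey line at every time, and the Cyba difference of −0.38 at 1 hr becomes 0.03 with the length index.

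Some macrophage markers moved with the genotype. The summed level of the 8 macrophage genes was lower in every Cpeb4-/- library than in every WT library at each of the 5 times. For example, it was 516905 to 642533 in WT and 412374 to 491187 in Cpeb4-/- at 0 hr, and 620165 to 652574 against 495678 to 575905 at 6 hr. This sum of back-transformed values is weighted to Lyz2, whose mean rlog in untreated WT was 18.53, against 15.71 for Csf1r, the next highest. It therefore does not describe the list gene by gene. Of the 8, limma called 1, 1, 2, 4 and 3 lower over the 5 times, and none higher. Over all genes the shares called are those given above, 16.3% at 6 hr and 7.91% at 9 hr. At 6 hr these were Lyz2 (−0.38), Fcgr1 (−0.28), Cd68 (−0.26) and Csf1r (−0.25). Cd14 was called lower at 0 hr (−0.32, adjusted p = 0.0458 by limma), 1 hr (−0.38), 3 hr (−0.30) and 9 hr (−0.38). Its 6 hr difference was −0.22 (adjusted p = 0.0543), which was not called. Others of the list went the other way without a call: Itgam was higher in Cpeb4-/- by 0.11 to 0.30 over the 5 times, and Mertk by 0.41 in the first hour and 0.38 at 9 hr (its difference was −0.28 at 6 hr). The part of these differences in the Rac2 and Ncf1 results was not tested.

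The spread of Cyba and Cybb between libraries, and that of Ncf4 in Cpeb4-/-, followed a property of the whole library. For each library, the median deviation of 3847 long genes (over 6000 exon bases) was taken from that of 1146 short genes (under 1500 bases), with the members left out, as a length index. Over the 40 libraries, as deviations from the group means, the index had a Pearson r of 0.94 with Cyba (Spearman rho 0.91), 0.98 in WT and 0.87 in Cpeb4-/-. Without the 2 libraries with the most extreme index r was 0.92. For Cybb r was −0.82 (rho −0.76; −0.81 in WT and −0.87 in Cpeb4-/-), for Ncf4 0.64 (0.60 in WT and 0.91 in Cpeb4-/-), for Rac2 0.57 (0.65 and 0.40) and for Ncf1 −0.26 (−0.41 and −0.07). These are descriptions: the 40 libraries come from 8 mice, and genes of a library share its preparation. Cyba has 1039 exon bases and Cybb 5808. Cyba was therefore high in the libraries in which short genes were high in general, and Cybb was low in them.

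**Figure D4:**
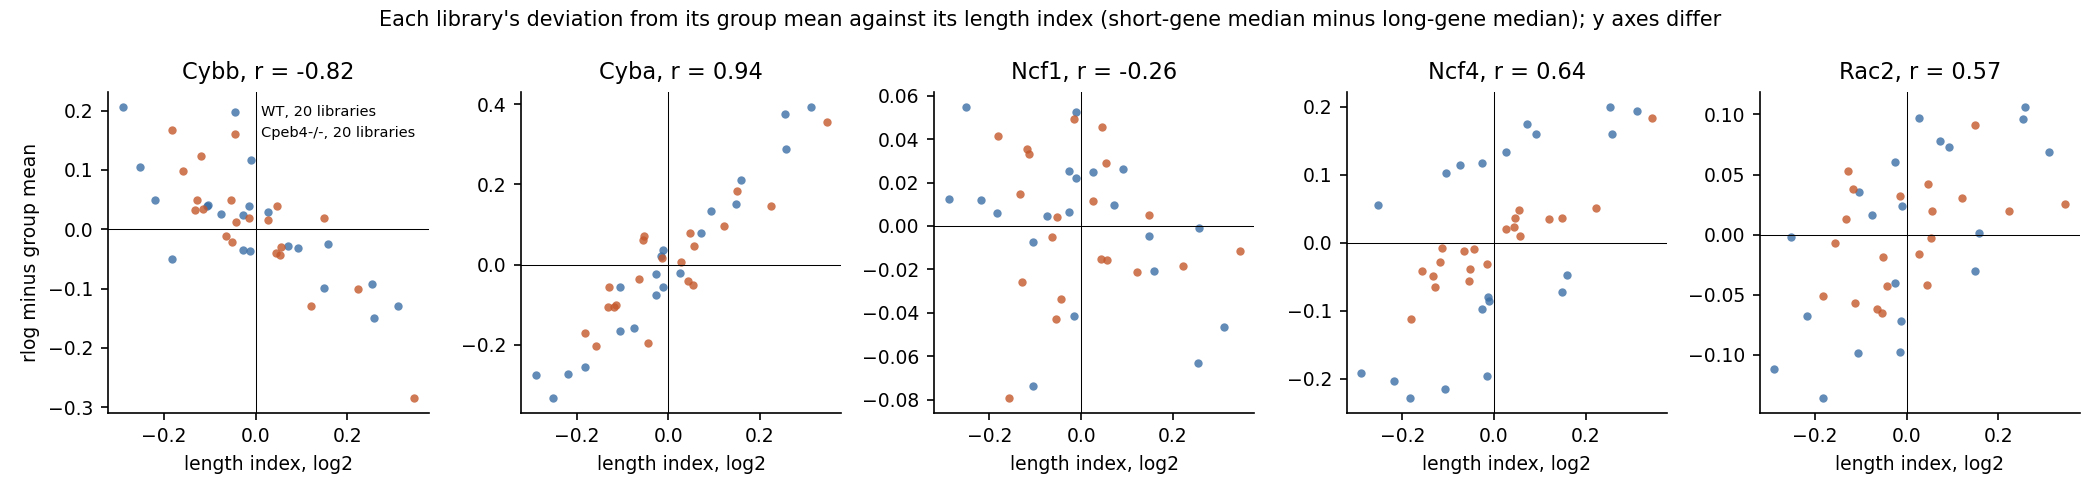
Deviation of each oxidase gene from its group mean (rlog, log2) against the length index of the library (log2), 20 WT libraries in blue and 20 Cpeb4-/- libraries in orange; r is Pearson's over 40 libraries and the y axes differ. Cyba follows the index closely (r = 0.94), Cybb runs against it (−0.82) and Ncf1 shows little relation (−0.26).

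The mean index was higher in WT at 4 of the 5 times and alike at 6 hr. Over 0, 1, 3, 6 and 9 hr its mean was 0.08, 0.18, 0.09, 0.00 and 0.08 in WT and −0.08, −0.18, −0.08, −0.00 and −0.08 in Cpeb4-/-, and the genotypes overlapped. With the index as a covariate, the Cyba difference at 1 hr went from −0.38 to 0.03 (adjusted p = 0.856) and that of Cybb from 0.15 to 0.02. The index is made from the same libraries, and its mean differed between genotypes. The covariate would therefore also remove a genotype effect on genes by their length, and such an effect and a property of the libraries cannot be told apart. Rac2 and Ncf1 were still called lower at 6 hr (−0.24 and −0.14, adjusted p = 0.00380 and 0.0164) and at 9 hr (−0.32 and −0.18, adjusted p = 0.00515 and 0.0288), and Rac2 was not called at 1 hr (−0.17, adjusted p = 0.0721). For these means and as a covariate, the index was centred on all libraries of a time, both genotypes together, and not on each group. Within 1 genotype its change with time is therefore an offset from the other genotype, and any shift shared by both was removed. In the LPS comparisons with this index, Cyba was called higher in WT at 1 hr (0.13), 3 hr (0.18) and 6 hr (0.09). In Cpeb4-/- it was called higher at 1 hr (0.13) and 3 hr (0.17). These LPS values are not adjusted for a length shift with time that both genotypes share.

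WT mice differed from each other in Ncf4 and Rac2. Averaged over the 5 times, Ncf4 was 13.01 in mouse 25, 13.26 in mouse 69, 13.32 in mouse 87 and 13.00 in mouse 88. The differences between the 4 WT mice, adjusted for time, were called (limma F test, adjusted p = 7.07e-05; 15.3% of all genes were called). Rac2 followed with 13.91, 14.02, 14.07 and 13.93 (adjusted p = 0.0145). Mice 69 and 87, the higher pair for both genes, are the batch 2 mice of this genotype, while mouse 87 shares its cage with mouse 88. Ncf1 ranged only from 14.13 to 14.16 over the WT mice and was not called, nor were Cyba (adjusted p = 0.0876) and Cybb (adjusted p = 0.0978). Among the 4 Cpeb4-/- mice no member was called (13.2% of all genes were), with Ncf4 at 13.07, 12.95, 13.02 and 13.01 in mice 2, 3, 55 and 62 and Rac2 at 13.74, 13.73, 13.79 and 13.73. This test was added after the spread of Ncf4 had been seen.

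Ncf4 and Rac2 share a segment of chromosome 15, and 11 tested genes lie in it or within 200000 bases of it. C1qtnf6, which lies between them, was likewise high in WT mice 69 and 87, at 6.95, 7.43, 7.47 and 7.08 (adjusted p = 3.04e-05), as was Cyth4, which encodes an exchange factor for ARF GTPases, at 14.47, 14.59, 14.59 and 14.44 (adjusted p = 0.0126). Of the 11 genes, 8 were called between WT mice (15.3% of all genes were), and these include Ncf4 and Rac2, from which the window was set. Not all followed this order: Csf2rb2 was 12.67, 12.55, 12.25 and 12.71 (adjusted p = 0.00262), lowest in mouse 87, and Mfng was 6.16, 5.82, 5.95 and 6.34 (adjusted p = 0.0308), lower in mice 69 and 87. C1qtnf6, Csf2rb2 and Csf2rb were called between Cpeb4-/- mice too (adjusted p = 0.0268, 0.00818 and 0.0277), where 13.2% of all genes were. Cyth4 was also lower in Cpeb4-/- at 6 hr (−0.38, adjusted p = 0.000690) and 9 hr (−0.39, adjusted p = 0.00581). Csf2rb, the shared beta chain of the GM-CSF, IL-3 and IL-5 receptors, was higher in Cpeb4-/- at 0 hr (0.29, adjusted p = 0.0359), 3 hr (0.38) and 6 hr (0.28, adjusted p = 0.00296). Neighbours in the segment thus differed between genotypes in both directions. These genes were chosen for their position after the Ncf4 and Rac2 values were seen.

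**Figure D5:**
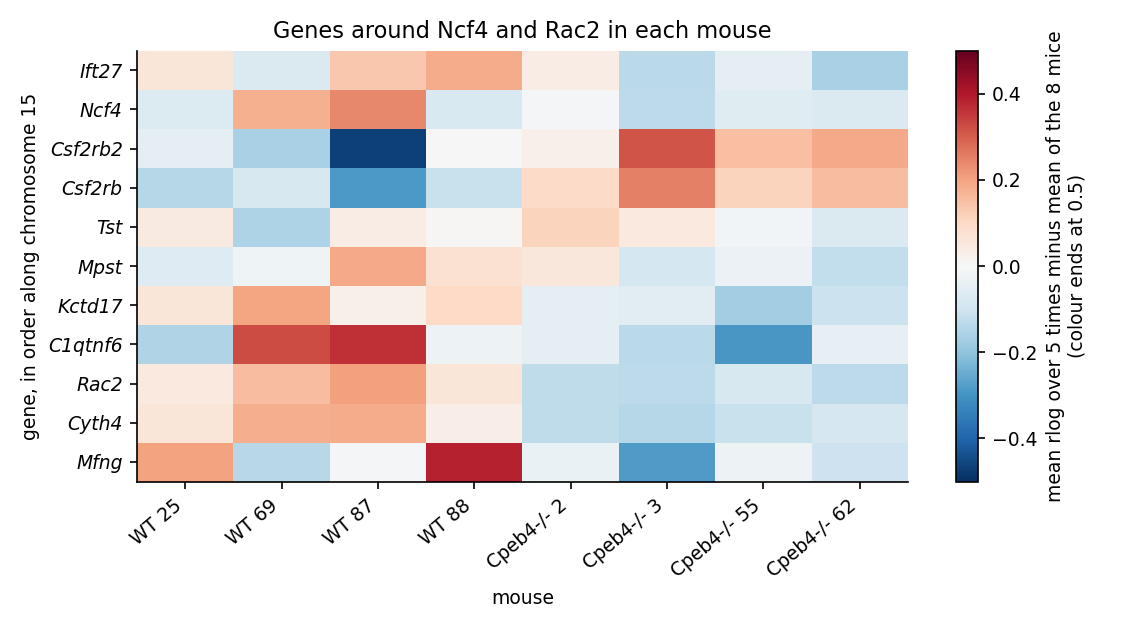
Mean rlog over the 5 times minus the mean of the 8 mice (colour, ending at 0.5) for the 11 tested genes around Ncf4 and Rac2, in their order along chromosome 15 (rows), in each mouse (columns). Ncf4, C1qtnf6, Rac2 and Cyth4 are high in WT mice 69 and 87, and Rac2 and Cyth4 are low in all 4 Cpeb4-/- mice.

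Of the 13 other oxidase catalytic units and partners listed, 6 passed the filter, among them Cybc1, Rac1, Rac3, Nox1 and Noxo1. Nox3, Nox4, Noxa1, Duox1, Duox2, Duoxa1 and Duoxa2 were below the filter. Cybc1, a chaperone of the flavocytochrome, fell by 0.42 at 3 hr in WT, was 1.03 higher at 9 hr and was lower in Cpeb4-/- at 9 hr (−0.21, adjusted p = 0.0369). Rac1, the Rac GTPase found in most cells, was between 13.43 and 13.51 in all 10 group means. Nox1, a related catalytic unit best known from colon epithelium, went from 5.88 ± 0.14 to 9.62 ± 0.13 (SD, n = 4) in WT by 6 hr, a rise of 3.74 (adjusted p = 8.59e-16), while its organizer Noxo1 fell by 1.00. The list's median WT change at 6 hr was 0.35, with 3 called higher and 1 lower, against −0.02 and 77.9% called over all genes. At 0, 1 and 3 hr none of the 6 differed between genotypes past the threshold.

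Of the 21 genes of oxidase assembly and Rac control, all tested, 1 was called higher and 5 lower in Cpeb4-/- at 6 hr (median −0.06, against −0.02 over all genes), and 3 higher and 3 lower at 9 hr (median 0.03, against 0.00). Over all genes 16.3% were called at 6 hr and 7.91% at 9 hr. The largest fall was that of Prex1, an exchange factor for Rac, by 0.52 at 6 hr (SE 0.05, adjusted p = 6.73e-05) and by 0.28 at 9 hr. Pik3r5, a regulatory subunit of the PI 3-kinase that PREX1 responds to, fell by 0.28 at 6 hr (adjusted p = 0.00191) and by 0.22 at 9 hr. Vav1, Vav3 and Nrros made up the rest of the lower genes at 6 hr. Tiam1, another Rac exchange factor, was higher in untreated cells (0.44), in the first hour (0.62) and at 9 hr (0.50), and its 6 hr value was −0.07. Hvcn1, the proton channel that balances the charge moved by the oxidase, was higher by 0.31 at 6 hr (adjusted p = 0.0226) and 0.30 at 9 hr. In this list 5 of 21 interactions were called at 6 hr, all negative, against 2.94% of all genes (267 lower and 118 higher): Prex1 (−0.47), Tiam1 (−0.51), Pik3r5 (−0.29), Arhgap25 (−0.34) and Vav1 (−0.16). LPS raised Pla2g4a, a phospholipase, by 2.70 at 6 hr and Pik3r5 by 1.92, and lowered Arhgap25, a Rac GTPase-activating protein, by −2.09 at 3 hr in WT.

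Of the 12 genes of superoxide and peroxide handling, 11 were tested. In WT at 6 hr, 5 were called higher and 5 lower (median −0.18), where 77.9% of all genes were called and their median was −0.02. Sod2, the mitochondrial superoxide dismutase, rose by 3.05 and Prdx5, a peroxiredoxin, by 2.09, while Gpx1, a glutathione peroxidase, fell by 1.29. Between genotypes, Cat, which encodes catalase, was higher in Cpeb4-/- at 6 hr (0.26, adjusted p = 0.0182) and 9 hr (0.46, adjusted p = 0.0117), and Gpx1 was lower at 6 hr (−0.19, adjusted p = 0.0409). The other 9 were not called at 6 or 9 hr, and none of the 11 was called at 0, 1 or 3 hr.

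Of 5 transcription factors known to act on oxidase genes, Spi1, which encodes PU.1, was lower in Cpeb4-/- at 6 hr (−0.19, adjusted p = 0.0180) and 9 hr (−0.30, adjusted p = 0.0428), and Elf1 was higher at 9 hr (0.38, adjusted p = 0.0192). Irf1, Irf8 and Cebpe were not called between genotypes at any time. In WT, Irf1 rose by 2.68 to its highest mean at 3 hr, while Irf8 (1.03) and Spi1 (0.99) had their largest rise at 6 hr.

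Over the 10 group means on the deposited scale, the members other than Cyba followed each other. Their r lay between 0.85 (Ncf1 and Rac2) and 0.95 (Ncf1 and Ncf4). It was 0.93 for Cybb and Ncf1, 0.91 for Cybb and Rac2 and for Ncf4 and Rac2, and 0.89 for Cybb and Ncf4. These r were not computed under the other scalings, under which the direction of Ncf1, Ncf4 and Rac2 turned at some times. Cyba had r between −0.03 and 0.22 with the other 4. The genes most like Cybb were Slc31a2 (r = 0.998), Tnfrsf1b (0.997) and Tlr1 (0.994), and those most like Rac2 were Nmnat1 (0.997), Esrra (0.994) and Copz1 (0.993). Ncf1 was most like Slc39a13 (0.992), Nab1 (0.988) and Tmem132a (0.983), and Ncf4 most like Vps29 (0.980), Skap2 (0.979) and Eif4e2 (0.978). Cyba was most like Cox7b (0.975), Atp6v0b (0.974) and Chchd2 (0.969). These are the highest of 13103 genes over 10 points from 8 mice, and are given without a test.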

How the data were processed

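Poly(A) RNA-seq libraries of BMDMs were analysed from 1 table of 27179 genes. The submitters' processing notes name STAR 2.3.0e, mm10, featureCounts and DESeq2. The deposited values are log2 values that the authors made with the rlog function of DESeq2, which corrects for library size and shrinks weakly expressed genes. Counts and read depth were not used here, so count tests were not run and no counting intervals are given. The number of mice limits the precision. The median standard error over all genes for a genotype difference was 0.07 at 0 and 6 hr, 0.09 at 1 hr and 0.08 at 3 and 9 hr.

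Groups came from the labels. A gene entered a fit where its rlog, averaged over the libraries used, reached 2.32 (log2 of 5). Testing was with limma 3.58.1 (lmFit, eBayes with trend, R 4.3.3), with Benjamini-Hochberg adjustment over all genes tested and a threshold of 0.05. Genotypes were compared at each time in 8 libraries, LPS times within a genotype in 20, and interactions in 40. Libraries of 1 mouse at different times come from the same animal. After removal of group means, the median correlation of such pairs was 0.29, and 68 of 80 exceeded 0.1. Between mice it was −0.09, and removing the group means by itself makes that value negative. The fits were tested on simulated data in which every library was drawn independently. That test therefore did not cover the sharing of mice between times, the batches or the scaling. Positions and exon lengths are those of GENCODE M21, and promoters those of RefSeq. Python 3.11.15 with numpy 2.4.6, pandas 2.3.3 and matplotlib 3.10.9 was used.

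The 5 members and the lists were chosen with earlier results of these data known. Named besides them are Cpeb4, up to 4 genes of each list called between genotypes at 6 or 9 hr, up to 3 with the largest WT change, and the 3 genes most like each member. Genes around Ncf4 and Rac2, Vav1, Vav3, Nrros and the macrophage genes with values were named after their values were seen. Alternatives were no filter, eBayes without trend, quantile normalization, batch as a covariate, all 40 libraries in 1 fit, the mouse as a replicate block, and leaving out each mouse. Added after seeing the data were scaling to the library total, the length index, leaving out 4 libraries and the test between mice.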

Additional observations from a re-analysis of the deposited data

Results flagged for a closer look

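In 2 of the 50 groups of 4 libraries (5 members, 10 groups), 1 library stood apart from the other 3, with a gap to its nearest neighbour, as a share of the range of the group, above Dixon's critical value. Chance alone gives about 1 in 20 groups. Cyba in Cpeb4-/- cells at 3 hr was 14.43 in mouse 2, and the nearest value was 14.68, a gap of 0.886 of the range. Ncf1 in WT cells at 9 hr was 14.34 in mouse 88, and the nearest value was 14.44, a gap of 0.956 of the range. The lower Ncf1 value lies on the side of the Cpeb4-/- libraries and still above all 4 of them. The cause of either gap was not tested.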

How the results depend on the processing

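Counts of members called that moved by more than 1.5 times were these. Between genotypes, the 0 hr count (0) was 1 with all 40 libraries in 1 fit and 1 with the mouse as a replicate block in that fit. The 1 hr count (1) was 0 without the filter, without the trend, after quantile normalization, with batch, scaled to the library total and with the length index, 2 with all 40 libraries, 2 with the replicate block, and 3 without the 4 libraries nearer to the other genotype. The 3 hr count (0) was 2 with all 40 libraries, 2 with the replicate block and 2 without those 4 libraries. The 6 hr count (2) was 1 without the trend, 0 after quantile normalization and 1 scaled to the library total. The 9 hr count (2) was 1 without the filter, without the trend, after quantile normalization and scaled to the library total, and 4 without the 4 libraries. For LPS in WT, the 1 hr count (2) was 4 with the length index, the count from 1 to 3 hr (2) was 4 after quantile normalization, and that from 6 to 9 hr (1) was 0 without the filter, 3 after quantile normalization, 3 scaled to the library total, and 2 with batch, with the mouse as a replicate block or with the length index. For LPS in Cpeb4-/-, the count from 1 to 3 hr (2) was 4 after quantile normalization, and that from 6 to 9 hr (1) was 4 after quantile normalization and 2 without the 4 libraries, scaled to the total or with the length index. Leaving out 1 mouse gave 0 to 2 for genotypes at 1 hr, 0 to 2 at 3 hr, 1 to 2 at 6 hr and 1 to 4 at 9 hr, and 0 to 1 from 6 to 9 hr of LPS in either genotype. Smaller moves include the WT count at 1 hr of LPS, which was 3 with batch, 3 with the replicate block (Ncf4 added; the block also gave 4 in place of 3 from 3 to 6 hr) and 3 scaled to the total (Rac2 added, lower), and that at 3 hr (4), which was 3 without the filter, after quantile normalization and scaled to the total, and 5 with the length index (Cyba added).

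Among the genotype differences, the changes from untreated cells and the called steps between times, these values changed sign. Between genotypes, quantile normalization gave −0.00296 for Cybb at 0 hr and 0.086, 0.084 and 0.00402 for Cybb, Cyba and Ncf4 at 6 hr. Scaling to the library total gave 0.034 for Cybb at 3 hr and 0.026 and 0.00453 for Cyba and Ncf4 at 6 hr. With the length index Cybb was −0.020 at 0 hr and −0.086 at 9 hr, Ncf4 was 0.016 at 0 hr, and Cyba was 0.048, 0.032, 0.00596 and 0.00715 at 0, 1, 3 and 9 hr. Without the 4 libraries Cybb was 0.049 at 3 hr. For LPS in WT, quantile normalization gave −0.16 and −0.23 for Cyba and Rac2 at 1 hr, −0.45, −0.055, −0.25 and −0.067 for Cyba, Ncf1, Ncf4 and Rac2 at 3 hr, −0.046 and −0.34 for Ncf1 and Ncf4 at 6 hr, and 0.11 for Cybb from 6 to 9 hr. Scaling to the total gave −0.16 for Rac2 at 1 hr, −0.22 and −0.082 for Cyba and Ncf4 at 3 hr, −0.10 for Ncf4 at 6 hr and 0.027 for Cybb from 6 to 9 hr, and the length index gave 0.092 for Cyba at 6 hr. For LPS in Cpeb4-/-, quantile normalization gave −0.33, −0.075 and −0.24 for Cyba, Ncf4 and Rac2 at 1 hr, −0.39, −0.00828 and −0.32 for Cyba, Ncf1 and Ncf4 at 3 hr, −0.69 and −0.27 for Cyba and Ncf4 at 6 hr, −0.55 and −0.058 for Cyba and Ncf4 at 9 hr, and 0.16 for Ncf1 from 6 to 9 hr. Scaling to the total gave −0.17 and −0.18 for Cyba and Rac2 at 1 hr, −0.19 and −0.11 for Cyba and Ncf4 at 3 hr, −0.41 and −0.025 for them at 6 hr, −0.34 for Cyba at 9 hr and 0.067 for Ncf1 from 6 to 9 hr. Without the 4 libraries Cyba was −0.00819 at 1 hr and −0.11 at 9 hr. Leaving out 1 mouse gave ranges across 0 for Cybb between genotypes (−0.029 to 0.041 at 0 hr, −0.069 to 0.049 at 3 hr and −0.019 to 0.13 at 9 hr) and for Cyba under LPS (−0.071 to 0.088 at 6 hr and −0.11 to 0.12 at 9 hr in WT, −0.022 to 0.10 at 1 hr and −0.13 to 0.059 at 9 hr in Cpeb4-/-). Steps not called on the deposited scale also turned, to a called value, under scaling to the total or quantile normalization: Ncf1 in WT from 1 to 3 hr (0.05, to −0.13 and −0.21) and from 6 to 9 hr (−0.05, to 0.15 and 0.27), Ncf4 in WT from 1 to 3 hr (0.03, to −0.28 by quantile) and in Cpeb4-/- from 1 to 3 hr (0.04, to −0.24 by quantile) and from 6 to 9 hr (−0.0026, to 0.17 and 0.21), and Cybb in Cpeb4-/- from 6 to 9 hr (−0.05, to 0.18 by quantile). The cause was not tested.

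Among all genes, quantile normalization moved the share of higher calls from 39.2% to 51% between genotypes at 6 hr, from 51% to 38% at 1 hr of LPS in WT, from 54.3% to 38.1% in Cpeb4-/-, and from 30.6% to 44.9% for the 6 hr interaction. Depth was not used here, and with 4 mice a group an adjusted p near the threshold is easily moved by 1 mouse.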
